A study of Mus musculus with 50 samples.

Results

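The claudin family members described here were the 10 genes Cldn1, Cldn2, Cldn3, Cldn4, Cldn5, Cldn7, Cldn8, Cldn10, Cldn16 and Cldn19, taken by symbol from the gene count files, which hold 24984 gene rows and 32 claudin rows in all. RNA was measured by RNA-seq in 38 libraries and open chromatin by ATAC-seq in 12 libraries, and the question was how the mouse kidney and liver change with age. All mice were C57BL/6, and the methods give the untreated animals as female. Both organs were taken untreated at 2.5 months (young) or at 23 to 25 months (old), and each such group had 4 RNA libraries and 3 ATAC libraries. A further set, from 20 to 21 month old animals given either the solvent DMSO or a treatment that the labels call 3C, had 4 RNA libraries for each organ and treatment. Skin fibroblasts marked P9, cultured with DMSO or 3C, had 3 RNA libraries a group, and neither 3C nor P9 is explained by the labels. The labels do not say that replicates came from separate animals or cultures, so p-values measure the spread between these libraries.

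Claudins are membrane proteins with 4 membrane-spanning stretches that join neighbouring epithelial or endothelial cells in the tight junction and decide which ions pass between the cells. In the kidney each stretch of the tubule carries its own set. Claudin-2 forms a cation and water pore in the proximal tubule, claudin-10 forms anion- or cation-selective pores depending on its isoform, claudin-16 and claudin-19 carry calcium and magnesium reabsorption in the thick ascending limb, and claudin-3, -4, -7 and -8 seal the distal nephron and collecting duct. Claudin-1 is a sealing claudin of many epithelia and of hepatocytes, and claudin-5 is best known from endothelium.

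The RNA libraries held between 14.2 M and 43.7 M counts on genes. The tissue markers matched the labels. Umod, the uromodulin gene of the thick ascending limb, had 6479 ± 174 CPM (a gene's count scaled by its library's total; SD, n = 4) in young kidney and no count in young liver, Alb, the albumin gene of hepatocytes, had 119100 ± 17280 CPM in young liver, and Col1a1, a collagen chain of fibroblasts, had 6156 ± 1189 CPM in the DMSO fibroblasts (n = 3). Some libraries stood apart. Old kidney replicate 2 had 2960 CPM of Alb, against 15.7 to 44.9 CPM in the other old kidneys and 10.5 to 15.4 CPM in the young kidneys. The RNA tests that rest on the old kidneys were therefore repeated without it. On a far smaller scale, 3C liver replicate 4 had 3.90 CPM of Umod and 3.32 CPM of the proximal tubule gene Slc34a1, against at most 0.476 and 0.635 CPM in the other livers. The untreated and the DMSO or 3C count files differ in the alignment tallies they carry, so levels were never tested across these series.

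The members lie apart in the genome (GRCm38) except for close pairs. Cldn4 (chr5:134945119-134946934, minus strand) and Cldn3 (chr5:134986214-134987472, plus strand) are separated by 39279 bp, and Cldn1 (chr16:26356642-26371841, minus strand) and Cldn16 (chr16:26463135-26482765, plus strand) by 91293 bp. Cldn5 (chr16:18776847-18778262) and Cldn8 (chr16:88560828-88563183, minus strand) are on the same chromosome, Cldn2 is on chrX:139800828-139811386, Cldn7 on chr11:69964779-69967885 and Cldn19 on chr4:119255414-119262438. Cldn10 (chr14:118787908-118875489) has start sites in the annotation near 118787908 and at 118854732. RefSeq promoter sequence of GRCm38.p6 was held for 9 of the 10 members, 12 promoters in all, and not for Cldn8. Only 4 of them are printed, because they belong to the kidney claudin with the highest level (Cldn2), to the neighbours with opposite tissue patterns (Cldn3 and Cldn4) and to the start site of Cldn10 that had more ATAC-seq peaks in old kidney (start site 1). Each run is the 250 bases before the RefSeq start, 5′ to 3′ on the gene's strand. Capitals mark matches on either strand to TATAAA, to TGANTCA, the form that AP-1 factors bind, or to an HNF1 motif. The regions are chrX:139800558-139800807 for Cldn2, chr5:134985964-134986213 for Cldn3, chr5:134946935-134947184 (minus strand) for Cldn4 and chr14:118787621-118787870 for Cldn10.
Cldn2: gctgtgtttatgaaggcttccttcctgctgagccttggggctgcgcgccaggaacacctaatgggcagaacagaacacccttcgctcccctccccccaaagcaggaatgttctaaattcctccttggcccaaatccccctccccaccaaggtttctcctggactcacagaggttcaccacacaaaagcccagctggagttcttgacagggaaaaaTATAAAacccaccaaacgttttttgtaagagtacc
Cldn3: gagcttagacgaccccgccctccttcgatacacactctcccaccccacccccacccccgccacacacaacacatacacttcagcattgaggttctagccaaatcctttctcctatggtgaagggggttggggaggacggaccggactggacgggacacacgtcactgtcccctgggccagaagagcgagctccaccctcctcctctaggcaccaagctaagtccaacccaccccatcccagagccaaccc
Cldn4: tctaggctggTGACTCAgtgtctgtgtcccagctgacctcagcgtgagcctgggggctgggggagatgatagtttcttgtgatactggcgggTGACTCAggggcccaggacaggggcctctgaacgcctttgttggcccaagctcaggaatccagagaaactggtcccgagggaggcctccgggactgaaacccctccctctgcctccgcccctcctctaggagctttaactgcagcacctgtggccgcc
Cldn10: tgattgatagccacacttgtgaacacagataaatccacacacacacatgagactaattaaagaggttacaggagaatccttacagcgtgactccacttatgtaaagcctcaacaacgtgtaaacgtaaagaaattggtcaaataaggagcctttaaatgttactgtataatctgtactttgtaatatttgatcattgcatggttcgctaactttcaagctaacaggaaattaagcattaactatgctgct
Cldn2 alone held TATAAA, at bases -35 to -30 from its start, a motif present in 12.4% of 32851 promoters of the same length. Cldn4 alone held TGANTCA, at bases -240 to -234 and -158 to -152, which reads the same on both strands and was present in 6.75% of promoters. No member promoter held the HNF1 motif searched, which 0.00913% of promoters hold. The Cldn10 promoter printed here had 36.0% GC and 4 CG pairs, and the one for its other start had 72.4% GC and 22 CG pairs, beside medians of 52.4% and 6 over all promoters. A match is a description of letters and not a bound site.

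In young kidney the pore-forming members dominated. Per kilobase of exon, Cldn2 had 201 ± 18.4 CPM per kb (SD, n = 4), Cldn10 had 104 ± 11.5 CPM per kb and Cldn8 had 53.3 ± 11.7 CPM per kb, and the other members lay between 7.55 CPM per kb (Cldn1) and 16.0 CPM per kb (Cldn7). Cldn2 made up 45.0% ± 2.48 of the members' summed level per kb in young kidney and 47.1% ± 2.85 in old kidney. Liver used another set. In young liver Cldn3 came first with 54.1 CPM per kb, a share of 49.6% ± 7.37, followed by Cldn2 with 30.6 CPM per kb, Cldn1 with 19.0 CPM per kb and Cldn5 with 5.81 CPM per kb, while the other members were below 0.3 CPM per kb. In the DMSO fibroblasts Cldn1, with 0.667 CPM per kb, and Cldn3, with 0.411 CPM per kb, were the highest.

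**Figure D1:**
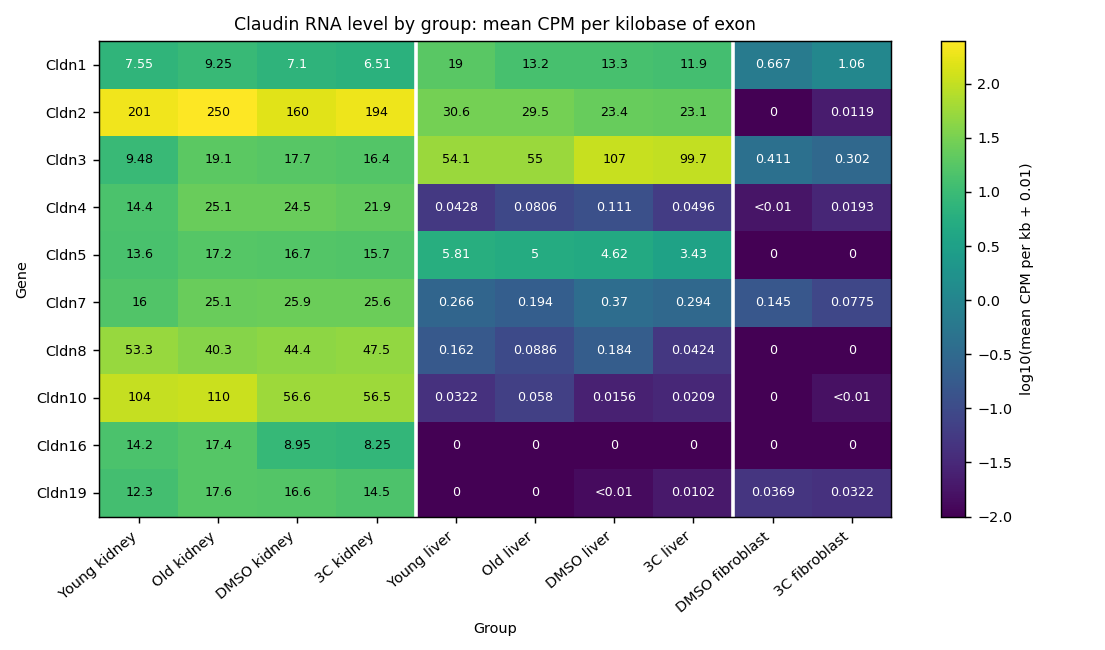
Mean CPM per kilobase of exon for each member (rows) in each RNA group (columns, n = 4 for tissues and n = 3 for fibroblasts), with the value printed in each cell and colour on a log10 scale after adding 0.01. Kidney columns are filled in every row, liver columns are bright for Cldn1, Cldn2, Cldn3 and Cldn5, and fibroblast columns are near 0. Untreated and DMSO or 3C groups were not compared with each other.

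Which members separate kidney from liver was tested first between the young tissues. Of the 10 members, 9 passed the edgeR test at an adjusted p under 0.05, 7 of them higher in kidney and 2 higher in liver, beside 65.4% of the 14057 genes tested (35.1% higher in kidney, 30.2% higher in liver). In fitted values on the log2 scale (positive, higher in kidney), the median of the members was 6.01 and the median of all genes 0.08. Cldn10 was higher in kidney by 10.6 (SE 0.43, edgeR adjusted p = 8.24e-10), Cldn8 by 7.25 (SE 0.35), Cldn4 by 7.20 (SE 0.41), Cldn7 by 4.83 (SE 0.32) and Cldn2 by 1.64 (SE 0.16). Cldn16 and Cldn19 had 1217 and 3833 counts in the young kidneys and 0 counts in every young liver. Against a floor of 3 counts over the group this made plain CPM at least 492-fold higher in kidney for Cldn16 and at least 1550-fold higher for Cldn19, and at least 233-fold and 733-fold with the TMM scaling of the fitted values, an estimate that covers counting error only. The liver claudins went the other way. Cldn3 was lower in kidney than in liver (log2 -3.604, SE 0.19, edgeR adjusted p = 7.12e-09) and Cldn1 was lower as well (log2 -2.40, SE 0.17, edgeR adjusted p = 1.18e-07). The TMM scaling lowers the kidney side of these values. In plain CPM the ratio of mean kidney to mean liver level was 0.175 for Cldn3, 0.398 for Cldn1 and 6.55 for Cldn2, in the same directions. The neighbouring genes Cldn3 and Cldn4 thus differed between the tissues in opposite directions. Of the junction partners, 13 of 28 were higher in kidney and 10 higher in liver, with the tricellular junction gene Lsr at -3.45 (SE 0.16), and all 26 genes of salt, calcium and magnesium handling were higher in kidney. Of the other claudins Cldn15, Cldn22 and Cldn6 were higher in kidney and Cldn14 was higher in liver (log2 -6.27, SE 0.33).

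Cldn3 had 11.2, 9.60, 12.2 and 14.7 CPM in the young kidneys and 68.2, 62.7, 67.3 and 74.3 CPM in the young livers, with no overlap. Cldn4 had 32.5, 22.2, 29.8 and 20.0 CPM in the young kidneys and at most 0.176 CPM in the young livers. For Cldn5 the answer depended on scaling. Its plain CPM did not overlap (14.9 to 24.7 in kidney, 5.27 to 9.69 in liver), as in 80.0% of genes tested, but after TMM scaling its log2 difference was 0.15 (SE 0.24, edgeR adjusted p = 0.598), and it passed in none of 15 alternative settings. In the mice given DMSO all 10 members passed the same test, 8 higher in kidney and 2 higher in liver, beside 71.9% of 14981 genes tested (38.7% and 33.2%), with Cldn5 at a log2 difference of 0.87 (SE 0.15, edgeR adjusted p = 0.000303). Cldn3 (log2 -3.598, SE 0.17) and Cldn1 (log2 -1.89, SE 0.13) were again the members higher in liver, with plain CPM ratios of 0.166 and 0.534, and Cldn16 was at least 260-fold higher in kidney in plain CPM (131-fold with TMM scaling).

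Cultured fibroblasts had little RNA of the 10 members, which summed to 3.67 to 5.26 CPM with DMSO against 998.2 to 1097 CPM in the DMSO kidneys. Of the other claudins, Cldn12 had 21.0 ± 0.63 CPM and Cldn15 15.6 ± 8.4 CPM in the 3C fibroblasts (SD, n = 3). All 10 members were higher in DMSO kidney than in DMSO fibroblasts by the edgeR test, beside 83.3% of 15437 genes tested, of which 45.0% were higher in kidney. Cldn2, Cldn5, Cldn8, Cldn10 and Cldn16 had 0 counts in all 3 DMSO fibroblast libraries, so that Cldn2 was at least 11200-fold higher in kidney and Cldn16 at least 223-fold higher in plain CPM (9130-fold and 183-fold with TMM scaling). Cldn1, the member with the smallest difference, had 2.50, 4.55 and 2.63 CPM in the DMSO fibroblasts and 27.7 to 39.7 CPM in the DMSO kidneys (log2 3.11, SE 0.22, edgeR adjusted p = 5.48e-08). Cldn3 was present at 0.459 to 0.604 CPM.

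With age, 4 members rose in the kidney and none fell past the test. These were Cldn3, Cldn4, Cldn7 and Cldn19, that is, 3 sealing claudins of the distal nephron and a divalent cation claudin of the thick ascending limb. Beside these 4 of 10 stand 11.5% of the 14495 genes tested by edgeR that passed in either direction and 8.15% that rose. None of the members reached, in this edgeR fit, the fold of 2 that the study also asks for, which 6.08% of genes did along with the adjusted p. Cldn3 was near that line, with a ratio of 2.01 between the mean plain CPM, and it passed both criteria in 3 of 15 alternative fits, those without old replicate 2, old replicate 4 or young replicate 4. The median log2 difference of the members was 0.29, against 0.02 for all genes, and 9 of 10 were above 0. Without old replicate 2 the same 4 members rose and Cldn8 fell, with a median of 0.38 over the 10, while the share of all 14519 genes tested that passed was 23.7% (11.5% higher, 12.2% lower).

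Cldn3 had 11.2, 9.60, 12.2 and 14.7 CPM in young kidney and 25.4, 19.1, 27.96 and 23.6 CPM in old kidney. Every old library was above every young one, and the log2 difference was 0.98 (SE 0.20, edgeR adjusted p = 0.0134). Old replicate 2, the library with the liver transcript, was the lowest of the old group, and without it the difference was 1.10 (edgeR adjusted p = 0.00532). Cldn4 had 20.0 to 32.5 CPM in young kidney and 36.8, 44.0, 42.8 and 58.5 CPM in old kidney, again without overlap (log2 0.77, SE 0.17, edgeR adjusted p = 0.0188, and 0.82 without old replicate 2). Cldn7, which binds EpCAM at the basolateral membrane as well as joining junctions, went from 25.9, 30.0, 35.1 and 34.0 CPM to 52.9, 40.6, 48.2 and 53.5 CPM (log2 0.61, SE 0.16, edgeR adjusted p = 0.0325, and 0.71 without old replicate 2). Cldn19 went from 52.6, 56.99, 45.3 and 54.7 CPM to 77.3, 70.8, 69.3 and 82.8 CPM (log2 0.49, SE 0.11, edgeR adjusted p = 0.0206, and 0.54 without old replicate 2). These 3 calls were less stable than that of Cldn3. At an adjusted p under 0.05 alone, Cldn3 passed in 15 of 15 alternative fits, Cldn4 in 10, Cldn19 in 7 and Cldn7 in 6. Removal of a trend with the GC content and length of genes ended the calls of Cldn4 (log2 0.34, edgeR adjusted p = 0.269), Cldn7 (0.19, adjusted p = 0.255) and Cldn19 (0.31, adjusted p = 0.0502). All 3 calls were also lost without young replicate 2 and without old replicate 4. In whole tissue, a change in the number of cells of a type and a change in RNA per cell cannot be told apart.

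Cldn16, the partner of claudin-19 in the thick ascending limb, had 17.1, 17.2, 12.9 and 19.3 CPM in young kidney and 16.7, 17.6, 22.8 and 24.4 CPM in old kidney. The groups overlapped, and the log2 difference was 0.26 (SE 0.18, edgeR adjusted p = 0.356). Cldn2 had 626, 658, 756 and 629 CPM in young kidney and 761, 886, 793 and 878 CPM in old kidney. All old libraries lay above all young ones, but the log2 difference of 0.28 (SE 0.11) gave an edgeR adjusted p of 0.1203, and DESeq2 placed it past the threshold (adjusted p = 0.0343), beside 20.7% of genes. The members whose old and young libraries did not overlap were thus Cldn2, Cldn3, Cldn4, Cldn7 and Cldn19, all higher in old kidney, beside 13.5% of genes tested with such a rise in plain CPM. Cldn10 had 262.9, 234.5, 305.3 and 279.3 CPM in young and 295.5, 225.8, 328.5 and 285.5 CPM in old kidney, a log2 difference of 0.05 (SE 0.17). Without old replicate 2 the differences were 0.35 for Cldn16, 0.28 for Cldn2 and 0.16 for Cldn10, none past the edgeR test.

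Cldn8, a claudin of the collecting duct that works with claudin-4, was the only member with a lower value in old kidney. It had 162.7, 128.3, 112.2 and 98.8 CPM in the young libraries and 84.5, 112.4, 76.6 and 106.5 CPM in the old libraries, which overlapped. The log2 difference was -0.43 (SE 0.14, edgeR adjusted p = 0.0817). It passed by DESeq2 (adjusted p = 0.0279) and without old replicate 2 (edgeR adjusted p = 0.0429). Cldn1 (log2 0.25, SE 0.17) and Cldn5 (log2 0.31, SE 0.20) did not pass, and Cldn1 had its highest kidney value, 59.6 CPM, in old replicate 2. Without that library their differences were 0.12 and 0.40, also short of the threshold.

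**Figure D2:**
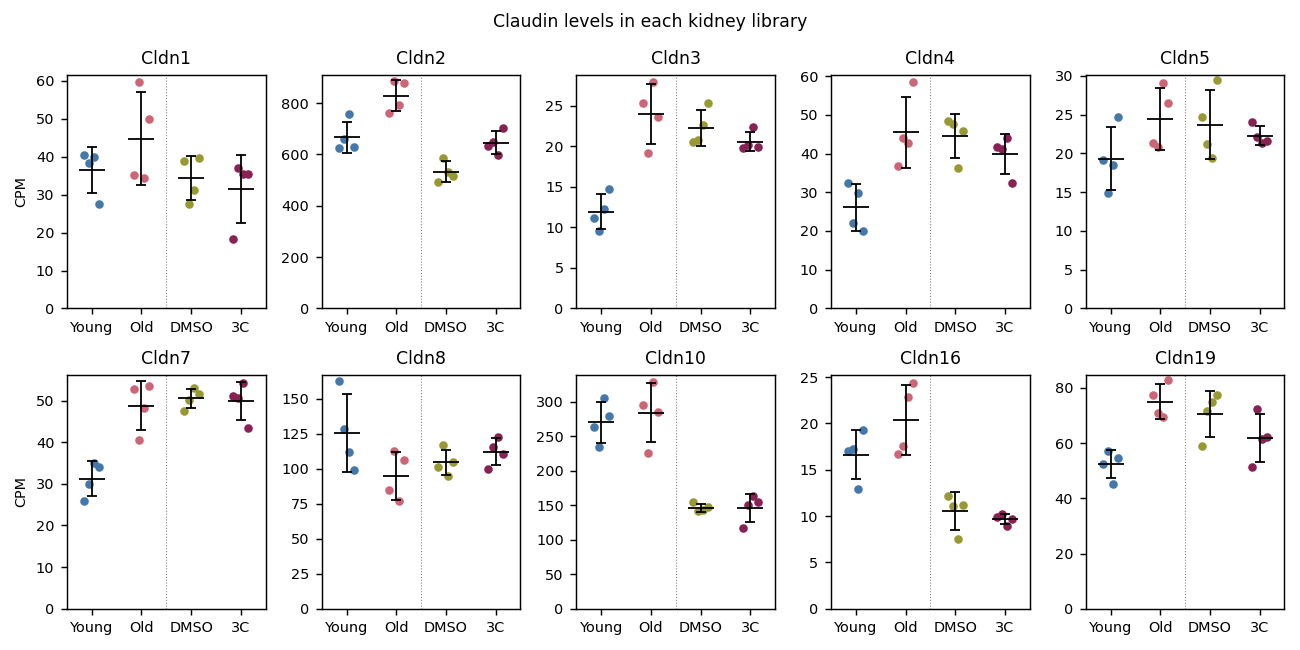
CPM of each member in every kidney RNA library (points), with the group mean and SD (bars), in young, old, DMSO and 3C mice. Cldn2, Cldn3, Cldn4, Cldn7 and Cldn19 show every old library above every young one, and Cldn2 shows every 3C library above every DMSO one. Groups on either side of the dotted line were not compared.

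The members with GC-rich exons had the larger age differences, with an exception. Cldn3 (62.7% GC), Cldn7 (57.5%), Cldn4 (56.8%) and Cldn19 (54.0%) rose, Cldn5 (60.5%) had a difference of 0.31 that did not pass, and Cldn8 has the lowest content (40.6%). Across the 10 genes, which are not independent replicates, Pearson's r between exon GC and the log2 difference was 0.795, and 0.465 after a GC and length trend over all genes was removed. Over all genes tested the median log2 difference was -0.17 in genes of 31.2% to 44.8% GC and 0.20 in genes of 54.1% to 74.5% GC. With that trend removed, 19.4% of genes passed (7.95% higher, 11.5% lower), Cldn3 kept a rise (log2 0.50, SE 0.11, edgeR adjusted p = 0.0127) and Cldn8 fell past the test (log2 -0.55, SE 0.15, adjusted p = 0.0294). Cldn5, Cldn10 and Cldn16 turned to -0.15, -0.17 and -0.03. The number of members past the edgeR test was 1 without young replicate 2 or without old replicate 4, and 2 without young replicate 1, young replicate 3 or old replicate 1. The shares of all genes that passed in the first pair of fits were 5.69% and 5.87%, and in the other three 7.34%, 6.26% and 8.39%.

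**Figure D3:**
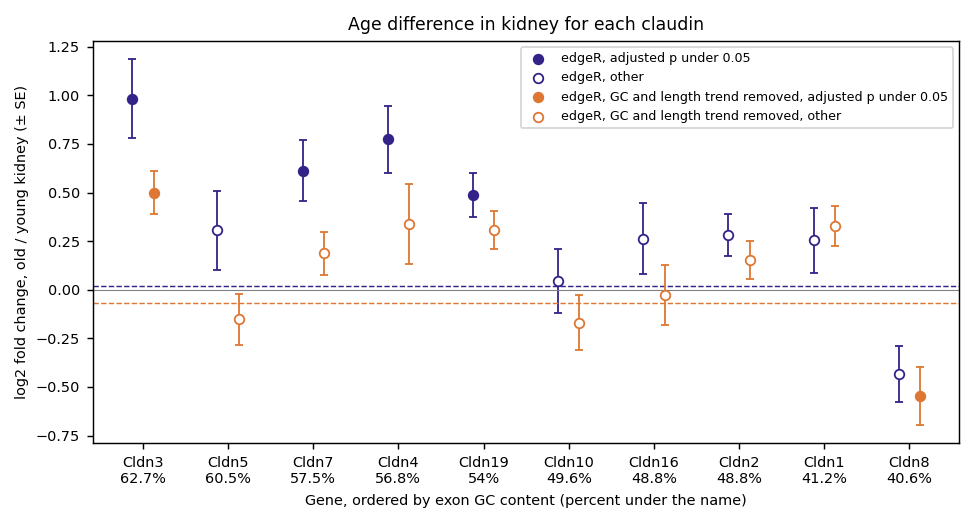
Log2 fold change of old over young kidney for each member (points, ± SE), ordered by exon GC content, from the edgeR fit as it stands and with the GC and length trend removed. Filled points have an adjusted p under 0.05, and dashed lines are the medians of all 14495 genes. Cldn3 is filled in both fits, at 0.98 and 0.50, and Cldn8 only with the trend removed.

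Of the 22 other claudin rows, 7 could be tested in kidney with age and none passed, with log2 differences between -0.56 (Cldn34c1) and 1.25 (Cldn11, SE 0.88). Cldn12 alone had an unadjusted edgeR p under 0.05 (log2 -0.34, SE 0.14), beside 30.1% of all genes, and was named after its value was seen, and without old replicate 2 it fell (log2 -0.43, edgeR adjusted p = 0.0488). Among 28 genes of tight junction scaffolds and partners, 4 rose and 3 fell, beside 8.15% and 3.36% of all genes, and without old replicate 2 the counts were 4 and 8, beside 11.5% and 12.2%. Tjp3, a junction scaffold, rose by 0.81 on the log2 scale (SE 0.13, edgeR adjusted p = 0.00487), Esam, an adhesion molecule of endothelium, by 0.56 (SE 0.14), and Lsr, of tricellular junctions, by 0.46 (SE 0.12, named after its value was seen). Ildr2 (-0.63, SE 0.15), Ocln, which encodes occludin (-0.45, SE 0.11), and the scaffold Patj (-0.40, SE 0.11) fell, and the median of the 28 was -0.14. Of 26 genes of salt, calcium and magnesium handling, 1 rose and 3 fell, with a median of -0.18, and without old replicate 2 the counts were 1 and 8, beside the same shares of all genes. Egf, which drives magnesium uptake (-0.77, SE 0.13), the calcium buffer Calb1 (-1.05, SE 0.21) and the sodium channel subunit Scnn1g (-0.68, SE 0.16) fell.

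Markers of other cells moved in the same contrast. All 7 leukocyte markers rose, their sum going from 236 to 275 CPM in young kidney to 1123 to 1542 CPM in old kidney, and 4 of 5 markers of injured tubule rose (1885 to 2072 CPM against 2755 to 4798 CPM). Spp1 made up most of the injured tubule sum (mean 1947 CPM in young and 3214 CPM in old kidney) and is also in the bile duct list. Of the 7 proximal tubule markers 3 fell (9399 to 12830 CPM against 6868 to 8613 CPM). Of the 5 thick ascending limb markers none passed, and their summed levels overlapped (8210 to 9061 CPM against 8580 to 10230 CPM), although Umod, which makes up most of the sum, did not overlap (6291 to 6670 CPM against 6893 to 7910 CPM, log2 0.16, SE 0.11, edgeR adjusted p = 0.350). Casr (-0.44, SE 0.14) and Kcnj1 (-0.25, SE 0.10) of the same list were below 0. Of the 6 principal cell markers Scnn1g fell and none rose. Aqp2 (log2 0.51, SE 0.22), Avpr2 (0.49, SE 0.18) and Fxyd4 (0.49, SE 0.23) lay above 0 without passing. Aqp3 (mean 122.7 CPM in young against 89.2 CPM in old kidney) and Hsd11b2 (195.1 against 158.8 CPM) were lower, also without passing. The sums of the principal cell markers overlapped (593 to 904 CPM against 711 to 1026 CPM). Without old replicate 2 Casr and Scnn1g fell and Aqp2 and Avpr2 rose, 5 proximal tubule markers fell, and the counts for leukocyte and injured tubule markers were again 7 and 4. Of the 5 intercalated cell markers 2 fell, Slc26a4 (log2 -0.46, SE 0.10) and the proton pump subunit Atp6v0d2 (-0.40, SE 0.09), and the sums did not overlap (313 to 378 CPM against 266 to 287 CPM). Of the 4 distal convoluted tubule markers Calb1 fell and the sums overlapped (1437 to 1839 CPM against 999 to 1509 CPM). Without old replicate 2 the same 3 markers of these lists fell. No marker of the lists named so far was at 0 in either group, while Dsg3 of the keratinocyte list was at 0 in both. In the remaining lists 2 of 6 fibroblast and 1 of 6 bile duct markers rose, and no podocyte, endothelial, hepatocyte or keratinocyte marker passed. Without old replicate 2 the counts that rose were 2 of 6 for fibroblast and 2 of 6 for bile duct markers, 2 of 8 endothelial markers (Kdr and Tek) fell, and again no podocyte, hepatocyte or keratinocyte marker passed. Their part in the claudin differences was not tested.

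In the liver no member passed the edgeR test between old and young mice, beside 2.46% of 12537 genes tested. Only Cldn1, Cldn2, Cldn3 and Cldn5 were high enough to be tested, and 1 of them, Cldn1, had an unadjusted p under 0.05, beside 14.7% of genes. Cldn1 had 104.8, 103.4, 100.9 and 58.8 CPM in young liver and 41.4, 80.5, 60.1 and 74.6 CPM in old liver. The groups overlapped because of young replicate 4, and the log2 difference was -0.59 (SE 0.19, edgeR adjusted p = 0.139), while DESeq2 placed it past the threshold (adjusted p = 0.0418), beside 6.84% of genes. Cldn3, which rose in kidney, had 62.7 to 74.3 CPM in young liver and 66.1 to 73.8 CPM in old liver (log2 -0.03, SE 0.18). Cldn2 (log2 -0.11, SE 0.20) and Cldn5 (log2 -0.28, SE 0.25) did not pass either. The median of the 4 members was -0.20, against 0.0035 for all genes. Leukocyte markers summed to 155 to 237 CPM in young liver and 302 to 503 CPM in old liver, with 2 of 6 tested past the threshold. The hepatocyte markers Alb, Apoa1, Ttr, Cyp2e1 and Serpina1c were lower in old liver without passing, between log2 -0.83 (Cyp2e1, SE 0.25) and -0.42 (Serpina1c, SE 0.30). In plain CPM Alb, Ttr and Cyp2e1 did not overlap, while Apoa1 and Serpina1c did. The part of either list in the claudin values was not tested.

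Whether age acted differently in the tissues was asked with an interaction term for the 4 members tested in both. None passed by edgeR, beside 1.72% of 15036 genes. The kidney difference exceeded the liver difference by 0.98 for Cldn3 (SE 0.28, edgeR adjusted p = 0.0889) and by 0.80 for Cldn1 (SE 0.25, edgeR adjusted p = 0.124), the 2 members with an unadjusted p under 0.05, beside 14% of genes. DESeq2 called both (adjusted p = 0.0289 and 0.0267), beside 4.95% of genes, and without old liver replicate 1 edgeR called Cldn3 (adjusted p = 0.0315). Without old kidney replicate 2 the term was 1.15 for Cldn3 (edgeR adjusted p = 0.0516) and 0.73 for Cldn1 (edgeR adjusted p = 0.154).

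The 3C treatment was set against DMSO in kidney, liver and fibroblasts. In kidney none of the 10 members passed the edgeR test, beside 0.0% of 14974 genes. Cldn2 came nearest. It had 491.0, 587.8, 532.6 and 516.7 CPM in the DMSO kidneys and 632.9, 649.7, 598.3 and 703.3 CPM in the 3C kidneys. Every 3C library was above every DMSO library, as in 1.72% of genes tested, and the log2 difference was 0.31 (SE 0.07, unadjusted p = 0.00136, adjusted p = 0.195 by edgeR). It was the only one of the 10 members with an unadjusted p under 0.05, beside 11.9% of genes, so the count is near the background, and the only one called by DESeq2 (adjusted p = 0.00590), beside 1.54% of genes. The other members lay between -0.16 (Cldn19, SE 0.10) and 0.13 (Cldn8, SE 0.07) and their groups overlapped. The members that rose with age in kidney gave 3C differences of -0.08 for Cldn3 (SE 0.09), -0.13 for Cldn4 (SE 0.11) and 0.01 for Cldn7 (SE 0.07). The 7 proximal tubule markers summed to 8399 to 9550 CPM with DMSO and 9287 to 10530 CPM with 3C, and the 7 leukocyte markers to 926 to 1327 CPM with DMSO and 681 to 899 CPM with 3C. No marker of either list passed the test and none was at 0, and their part in the Cldn2 values was not tested.

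In liver 5 members could be tested for 3C and none passed, beside 0.0% of 13042 genes, with none at an unadjusted p under 0.05 (3.34% of genes) and none called by DESeq2. Cldn5 had 7.47, 6.74, 6.10 and 5.84 CPM in the DMSO livers and 4.34, 5.79, 5.23 and 4.08 CPM in the 3C livers. The groups did not overlap, with every 3C value lower, as in 1.23% of genes tested, and the log2 difference was -0.40 (SE 0.18, edgeR unadjusted p = 0.0537), or -0.33 without 3C replicate 4. The sums of the 8 endothelial markers overlapped (113 to 215 CPM with DMSO, 130 to 169 CPM with 3C). Cldn3, the leading liver claudin, had 113 to 167 CPM with DMSO and 105 to 146 CPM with 3C (log2 -0.08, SE 0.17). In fibroblasts only Cldn1 could be tested. It had 2.50, 4.55 and 2.63 CPM with DMSO and 3.74, 6.19 and 5.46 CPM with 3C, which overlapped, and the log2 difference was 0.62 (SE 0.29, edgeR adjusted p = 0.270, DESeq2 also making no call), beside 4.22% of 13449 genes that passed. The 5 keratinocyte markers summed to 3.97 to 6.17 CPM with DMSO and 3.44 to 6.03 CPM with 3C. Most of this was Krt10 (mean 4.79 and 4.215 CPM), while the basal keratins Krt5 and Krt14 were at most 0.245 CPM and 0.04315 CPM in any library, and Krt14 and Dsg3 were at 0 in the 3C libraries. The interaction between 3C and tissue passed for none of the 5 members tested in both tissues by either tool, and none had an unadjusted p under 0.05 (3.57% of genes), beside 0.0% of 15526 genes with an adjusted p under 0.05 by edgeR.

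**Figure D4:**
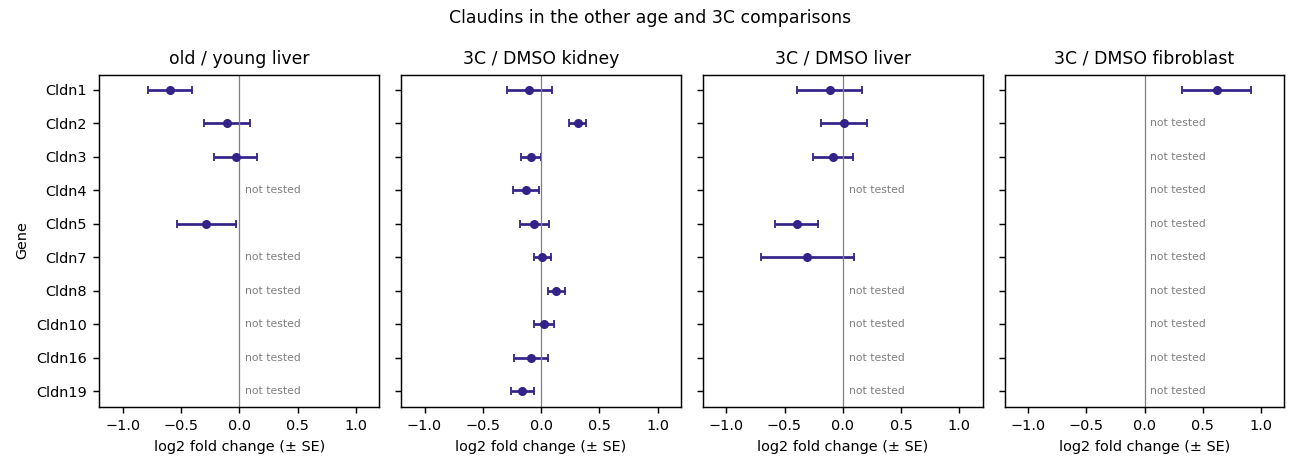
Log2 fold change (± SE, edgeR) of each member in old over young liver and in 3C over DMSO kidney, liver and fibroblasts. Members too low to test are marked, and no point has an adjusted p under 0.05. Cldn1 in old liver lies at -0.59 and Cldn2 in 3C kidney at 0.31.

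ATAC-seq showed which member start sites lay in open chromatin. A start site was counted as covered where a deposited peak lay within 1 kb in every library of a group. Of the 11 start sites of the members, 8 were covered in young kidney and 8 in old kidney, against 3 in young liver and 4 in old liver. Over all 27573 start sites of protein-coding genes the shares were 53.9%, 52.0%, 48.1% and 47.9%. Cldn1 and Cldn3, the members higher in liver, were covered in both tissues. Cldn4, Cldn7, Cldn16, Cldn19 and Cldn10 start site 1 had no peak in any of the 6 liver libraries.

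The peaks sat at different places. In the kidney libraries the summit of the highest peak lay at -55 to 4 bp from the start for Cldn1 and at -49 to -34 bp for Cldn3, in the promoter printed above. For Cldn2 it lay at -695 to -663 bp, outside the printed promoter with its TATAAA, and for Cldn19 at -1158 to -1044 bp, at peaks that reach into the 1 kb window. Where the peaks and the RNA differed, Cldn5 had RNA in kidney (14.9 to 29.1 CPM in untreated mice) but no peak in any of 6 kidney libraries, while all 6 liver libraries had a peak at a lower plain CPM. With TMM scaling the RNA of Cldn5 did not separate young kidney from young liver (edgeR adjusted p = 0.5985). Cldn4 had a peak in 1 of 3 young and 1 of 3 old kidneys. Cldn2, with 64.9 to 121.9 CPM in untreated liver, had a peak in 1 of 6 liver libraries. Cldn10 start site 2 had a peak in 5 of 6 liver libraries, where the gene had at most 0.558 CPM.

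For the age comparison, the fold enrichment of the highest peak was compared with an exact permutation test, two-sided, which with 3 against 3 libraries cannot go below 0.1. At Cldn10 start site 1 the values were 2.22, 2.21 and 0 (no peak) in young kidney and 3.19, 3.57 and 3.11 in old kidney, a mean of 1.48 ± 1.28 against 3.29 ± 0.24 (SD, n = 3, exact p = 0.1). All old values were above all young ones, as at 8.53% of start sites. The RNA of Cldn10 differed by 0.05 on the log2 scale, but the gene count joins the transcripts of its start sites and cannot show a change at a single site. At Cldn1 the values were 8.68, 8.51 and 7.53 in young and 7.47, 6.82 and 6.50 in old kidney, all below the young ones, as at 5.86% of start sites (exact p = 0.1). At Cldn3 they overlapped in kidney, with 6.94, 7.77 and 5.72 in young and 5.27, 5.09 and 7.95 in old libraries (exact p = 0.6), although its RNA rose. In liver, Cldn3 had 3.35, 3.34 and 3.26 in young and 1.98, 2.25 and 2.69 in old libraries, all lower, as at 3.76% of start sites (exact p = 0.1). Cldn16 had a peak in 3 young and 2 old kidneys (5.18 ± 1.45 against 2.58 ± 2.24, exact p = 0.2). At Cldn7 (exact p = 0.8) and Cldn19 (exact p = 0.5), whose RNA rose, the values overlapped as well. The old kidney libraries had fewer peak intervals (93072 to 108970) than the young ones (115836 to 128395), and the part of that in these values was not tested.

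**Figure D5:**
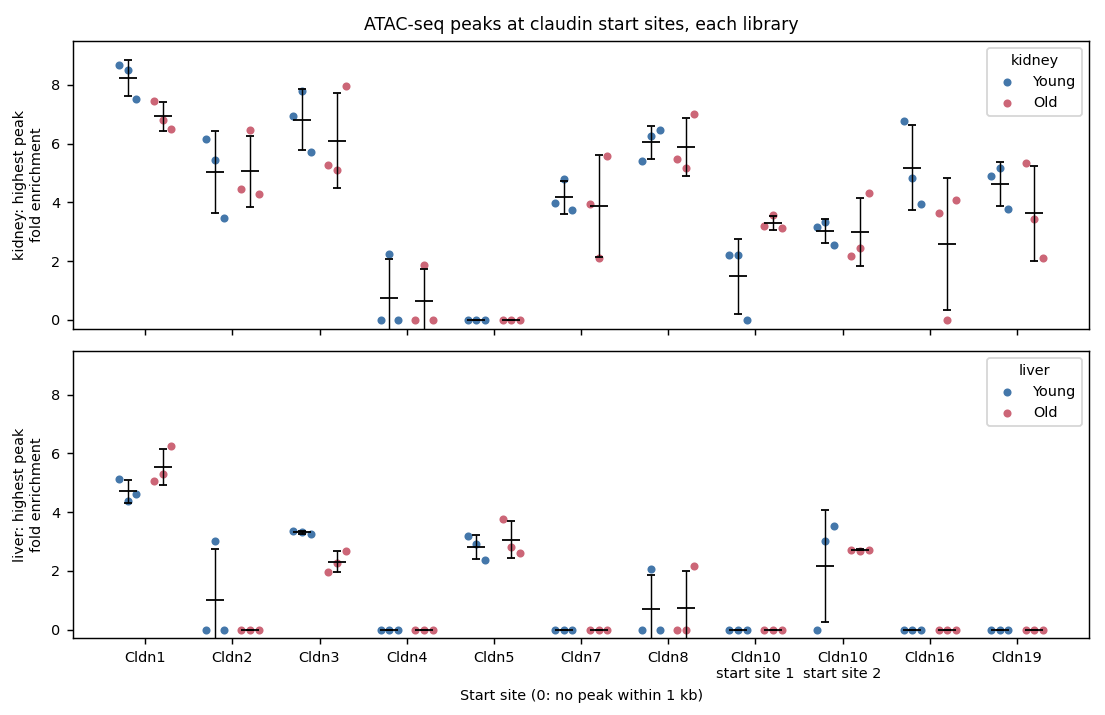
Highest fold enrichment of a peak within 1 kb of each member start site, in every kidney (top) and liver (bottom) library (points) of young and old mice, with the mean and SD (bars) and 0 for no peak. Kidney shows peaks at 8 of 11 sites in every library of a group, liver mainly at Cldn1, Cldn3, Cldn5 and Cldn10 start site 2.

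The genes whose levels were most like each member were sought over the means of log2(CPM + 1) in the 10 RNA groups, as a description. These 10 points share tissues and series, so that genes used in the same tissue score high. For Cldn5 the closest were Mmrn2 (Pearson's r = 0.997) and Tie1 (r = 0.995), both genes of endothelium. For Cldn4 Ttc22 was among the closest (r = 0.9997), and for Cldn8 they were Ugt8a (r = 0.9993) and Slc26a4, the pendrin gene of intercalated cells (r = 0.9992). Cldn19 was closest to Fxyd4, a pump regulator of the collecting duct (r = 0.9998), and Paqr5 (r = 0.9996), and Cldn16 to LOC102634389 (r = 0.9996) and Tmed6 (r = 0.9994). Cldn7 was closest to Atp4a (r = 0.9996) and Mfsd6l (r = 0.9991), Cldn10 to Fa2h and Clrn3 (r = 0.9996 for each), and Cldn2 to Mfsd4b1 (r = 0.998) and Fgf1 (r = 0.998). The members higher in liver had other company, Gchfr (r = 0.997) and Tm6sf2 (r = 0.995) for Cldn3, and Hpgd (r = 0.994) and Gstt1 (r = 0.993) for Cldn1.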

How the data were processed

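RNA-seq read counts per gene were deposited by the authors and were made with Trimmomatic (0.39) for adapters, HISAT2 (2.2.1) on the mm10 genome and HTSeq (0.12.4) without strand, so reads of a gene and an antisense gene over it cannot be told apart (Cldn3 shares 3.2% of its exons with Wbscr25, and Cldn19 2.1% with Gm12927). The ATAC-seq peak files, aligned with Bowtie2 (2.3.5.1) and called per library with MACS2 by the authors, hold a fold enrichment (ratio) and −log10 p and q values for each peak. Depth was 14.2 M to 43.7 M counts per RNA library. The peak files do not give the depth of each ATAC-seq library.

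Counts were tested with edgeR (4.0.16) quasi-likelihood fits in R (4.3.3) on the groups compared, with filterByExpr (minimum count 10), TMM scaling and Benjamini-Hochberg adjustment over all genes tested. "Rose" and "fell" mean an adjusted p under 0.05. SE is the log2 difference over the square root of F. Levels are CPM, each count scaled by its library's total on genes, divided by exon length (GENCODE vM21 annotation) where genes are compared. Bounds and intervals against 0 counts cover counting error only. Alternatives were DESeq2 (1.42.0), other size factors, filters, the fold rule, removal of a GC and length trend, the replicate number as a block, and leaving out each library. All 54 pairs of replicates differed by more than sampling noise (chi-square per degree of freedom of at least 8.12). Simulated 4-fold changes in 200 of the 14495 genes were recovered for 200 genes in the comparison of old and young kidney, with 12 false calls. For the interaction of age and tissue 178 of 200 were recovered, with 9 false calls. These changes are larger than any member's age difference in kidney, and smaller ones were not simulated.

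Same-numbered young kidney and young liver libraries had positive correlations (0.12, 0.219, 0.104 and 0.452), but replicate 1 did not match its own number best. The labels state no pairs, and the values reported for that comparison come from the fit without them. With the replicate number as a block, 10003 of 14057 genes passed the edgeR test, against 9187 without it. In the other comparisons at least 1 pair fell below 0.1.

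All 10 members are named. Of other claudins, junction partners and salt handling genes, at most 3 genes a direction are named, those of lowest p among genes past the threshold, and the 2 genes most like each member (genes of at least 1 CPM in a group). The members and gene lists were chosen with earlier results of these data known. Some genes that this rule names are not reported here, and protein sequences were not used.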

Additional observations from a re-analysis of the deposited data

Results flagged for a closer look

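In groups of 4 libraries, 4 of the 59 member levels tested had a library farther from the others than Dixon's 95% critical value of 0.829 allows, where chance alone would mark about 5%. Cldn1 was low in young kidney replicate 4 (27.6 CPM, against 38.3 to 40.4 CPM in the other replicates), in young liver replicate 4 (58.8 CPM, against 100.9 to 104.8 CPM) and in 3C kidney replicate 1 (18.2 CPM, against 35.3 to 37.1 CPM). Without young liver replicate 4 the age difference of Cldn1 in liver kept its sign and stayed short of the threshold, and without 3C kidney replicate 1 the 3C difference of Cldn1 in kidney turned from -0.10 to 0.08 on the log2 scale. Cldn3 was high in 3C kidney replicate 3 (22.4 CPM, against 19.9 to 20.2 CPM).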

How the results depend on the processing

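Of 1076 values recomputed under alternatives, 992 kept their direction and side of the threshold, 22 lost it, 11 gained it and 51 changed sign, none of the last for a member past the edgeR test. In old against young kidney, 4 members passed. The number was 6 with DESeq2 (beside 20.7% of all genes), 0 with the fold rule (6.08%), 1 with the replicate block (7.29%), 2 with the GC and length trend removed (19.4%), 2 with both (12.5%), and 1 to 5 when a library was left out (5.69% to 23.7%). The replicate numbers are only shared names there, with same-number correlations of -0.28 to 0.285. The trend removal turned Cldn5 to -0.15 (-0.15 with the replicate block as well), Cldn10 to -0.17 (-0.18) and Cldn16 to -0.0265 (-0.0294) on the log2 scale. In 3C against DMSO kidney it turned Cldn3 to 0.00905 (0.01004) and Cldn5 to 0.0279 (0.0422), and in 3C against DMSO liver Cldn3 to 0.0448 (0.0408). With the replicate block alone the 3C interaction of Cldn3 was -0.00065. The cause of these changes was not tested.

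DESeq2 called 1 member in old against young liver (beside 6.84% of genes), 1 in 3C against DMSO kidney (1.54%) and 2 in the interaction of age and tissue (4.95%), where leaving out a library gave 0 to 1. Those edgeR fits passed between 114 of 15224 genes (without young kidney replicate 2) and 456 of 15257 genes (without old liver replicate 1). Leaving out a library gave log2 ranges that span 0 for Cldn10 in old kidney (-0.0704 to 0.16), Cldn3 in old liver (-0.18 to 0.11) and Cldn5 between young kidney and liver (-0.0210 to 0.30). In 3C kidney the ranges were -0.19 to 0.0833 for Cldn1, -0.14 to 0.0613 for Cldn5, -0.0253 to 0.0700 for Cldn7, -0.0225 to 0.11 for Cldn10 and -0.22 to 0.0021 for Cldn16. In 3C liver they were -0.39 to 0.13 for Cldn1, -0.17 to 0.14 for Cldn2 and -0.17 to 0.10 for Cldn3. For the 3C interaction they were -0.24 to 0.28 for Cldn1 and -0.20 to 0.0885 for Cldn3. With peaks of a −log10 q of at least 5, covered start sites numbered 7 of 11 in young kidney, 5 in old kidney, 1 in young liver and 1 in old liver, beside 47.6%, 45.1%, 35.6% and 36.3% of all start sites. The tests of gene and marker lists without old kidney replicate 2 were chosen after seeing the data. The trend removal was not run for the interactions. Members near 0 counts in liver and fibroblasts could not be tested for age or 3C at this depth, and the exact permutation test used for the ATAC-seq peaks cannot pass the threshold with 3 against 3 libraries.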
